A study of Mus musculus with 48 samples.

Results

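Gas5, Snhg1, Snhg3, Snhg5, Snhg6, Snhg8, Snhg12, Snhg15, Snhg17 and Zfas1 are noncoding genes that carry small nucleolar RNAs (snoRNAs) within their transcripts. They were chosen by name: the Ensembl identifiers of the gene tables were matched to symbols in the GENCODE annotation, and all 10 symbols were found among 55335 genes. Each host was read in every group of RNA-seq libraries, with cycloheximide (CHX) and without it, and in ribosome profiling (Ribo-seq), which is meant to sequence the RNA fragments protected by ribosomes. The cells were mouse embryonic stem cells of a hybrid 129-C57BL/6 background, grown with serum, LIF and 2i, with a Cre-ERT2 recombinase in the Rosa26 locus of the parental lines, and the edited lines were clonal derivatives.

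Nrde2 knockout cells (Nrde2-KO) carried a conditional allele and were given 100 nM 4-hydroxytamoxifen for 4 days, and Mtrex knockout cells (Mtrex-KO) were given the same for 3 days. Their wt controls (Nrde2-WT and Mtrex-WT) were the same conditional lines without the drug, so that drug and deletion cannot be told apart. Nrde2d200 cells lack the N-terminal 200 amino acids of NRDE2, and Nrde2D174R cells (Nrde2-D174R in the plots) have a point mutation in it. Both were compared with Nrde2-WT. Ccdc174-dTAG cells expressed CCDC174 fused to the FKBP12F36V degron and were given 500 nM dTAG-13 for 24 hours, and Ccdc174-WT cells had the same fusion without dTAG-13. A second Nrde2-WT and Nrde2-KO pair and the Ccdc174 pair were each sequenced without CHX and after 0.1 mg/ml CHX for 4 hours. Ribo-seq was made from wt and Nrde2-KO cells without CHX treatment. Each group had 2 libraries, 28 of RNA-seq and 4 of Ribo-seq, and since no label says that replicates were separate cultures, p-values measure the spread between these libraries, which may be technical.

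As background, snoRNAs guide the chemical modification of ribosomal and spliceosomal RNAs, and most of them in mammals are cut from introns after splicing. The box C/D class guides methylation of riboses, and the box H/ACA class guides the change of uridine to pseudouridine. The spliced exons of several noncoding host genes reach the cytoplasm, where ribosomes start on short open reading frames and nonsense-mediated decay (NMD) degrades the RNA. CHX blocks translation elongation and with it NMD, but it also acts on other RNAs through the loss of short-lived proteins. Many of these hosts start within a run of pyrimidines, as genes of ribosomal proteins and translation factors do, and belong to the 5' terminal oligopyrimidine (TOP) genes. MTREX is the RNA helicase that feeds nuclear RNAs to the exosome, and NRDE2 is a nuclear protein that binds it. CCDC174 is a nuclear protein associated with the exon junction complex.

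Between 28683644 and 36272309 reads per RNA-seq library and between 3475051 and 5035940 reads per Ribo-seq library fell in genes. All 8 embryonic stem cell markers were above 1 CPM (reads of a gene scaled to the library's total) in every RNA-seq library, and 0 of 5 fibroblast, 2 of 4 trophectoderm and 1 of 4 primitive endoderm markers were. The 2 Mtrex-KO libraries were the least alike (Pearson r = 0.981 across genes, against 0.993 to 0.997 in the other RNA-seq groups). Nrde2 was at 41.3 and 40.3 CPM in Nrde2-WT and at 19.2 and 20.3 CPM in Nrde2-KO, and Mtrex was at 118 and 111 CPM in Mtrex-WT and at 46.2 and 41.3 CPM in Mtrex-KO. With CHX, Nrde2 was at 242 and 224 CPM in Nrde2-WT and at 257 and 249 CPM in Nrde2-KO, so the gene-level count did not tell these 2 groups apart. Ccdc174 mRNA, at 28.2 and 28.2 CPM in Ccdc174-WT and 35.2 and 38.0 CPM in Ccdc174-dTAG, cannot check a depletion of the protein. In bulk RNA, fewer cells with a transcript and less of it per cell cannot be told apart.

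The box C/D hosts are Gas5 (chr1:161034422-161038539, plus strand, GRCm38), Snhg1 (chr19:8723475-8726443, plus), Snhg5 (chr9:88521050-88522929, minus), Snhg6 (chr1:9941959-9944118, minus) and Zfas1 (chr2:167062934-167065862, plus). The box H/ACA hosts are Snhg3 (chr4:132348014-132353686, minus), Snhg8 (chr3:123507552-123508404, minus), Snhg15 (chr11:6525591-6528760, minus) and Snhg17 (chr2:158353700-158361580, minus), and Snhg12 (chr4:132308623-132311024, plus) is mainly of this class. Levels are CPM divided by a library factor (the median of ratios to the other libraries), called normalized CPM. Per kilobase of annotated exon, the median over the 8 wt libraries without CHX was highest for Snhg6 (62.1 CPM per kilobase), Snhg5 (54.8) and Gas5 (51.3). Snhg1 (36.5), Snhg3 (33.2), Snhg8 (26.2) and Snhg15 (25.9) were intermediate, and Zfas1 (17.2), Snhg12 (15.8) and Snhg17 (6.18) were lowest. In the annotation the exons of all transcripts together cover the whole gene for Snhg1, Snhg8, Snhg12 and Zfas1, and nearly all of it for Gas5 (3760 of 4118 bases), Snhg5 (1730 of 1880) and Snhg17 (7052 of 7881). Counts of these 7 hosts therefore include reads from bases that are intron in other transcripts, and their values per kilobase are divided by the length of those bases as well. Snhg3 shares 13.7% of its exon bases with Rcc1 on the same strand and 71.5% with Gm17300 on the other, so its value is less certain than the others, although the libraries were strand-specific.

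**Figure D1:**
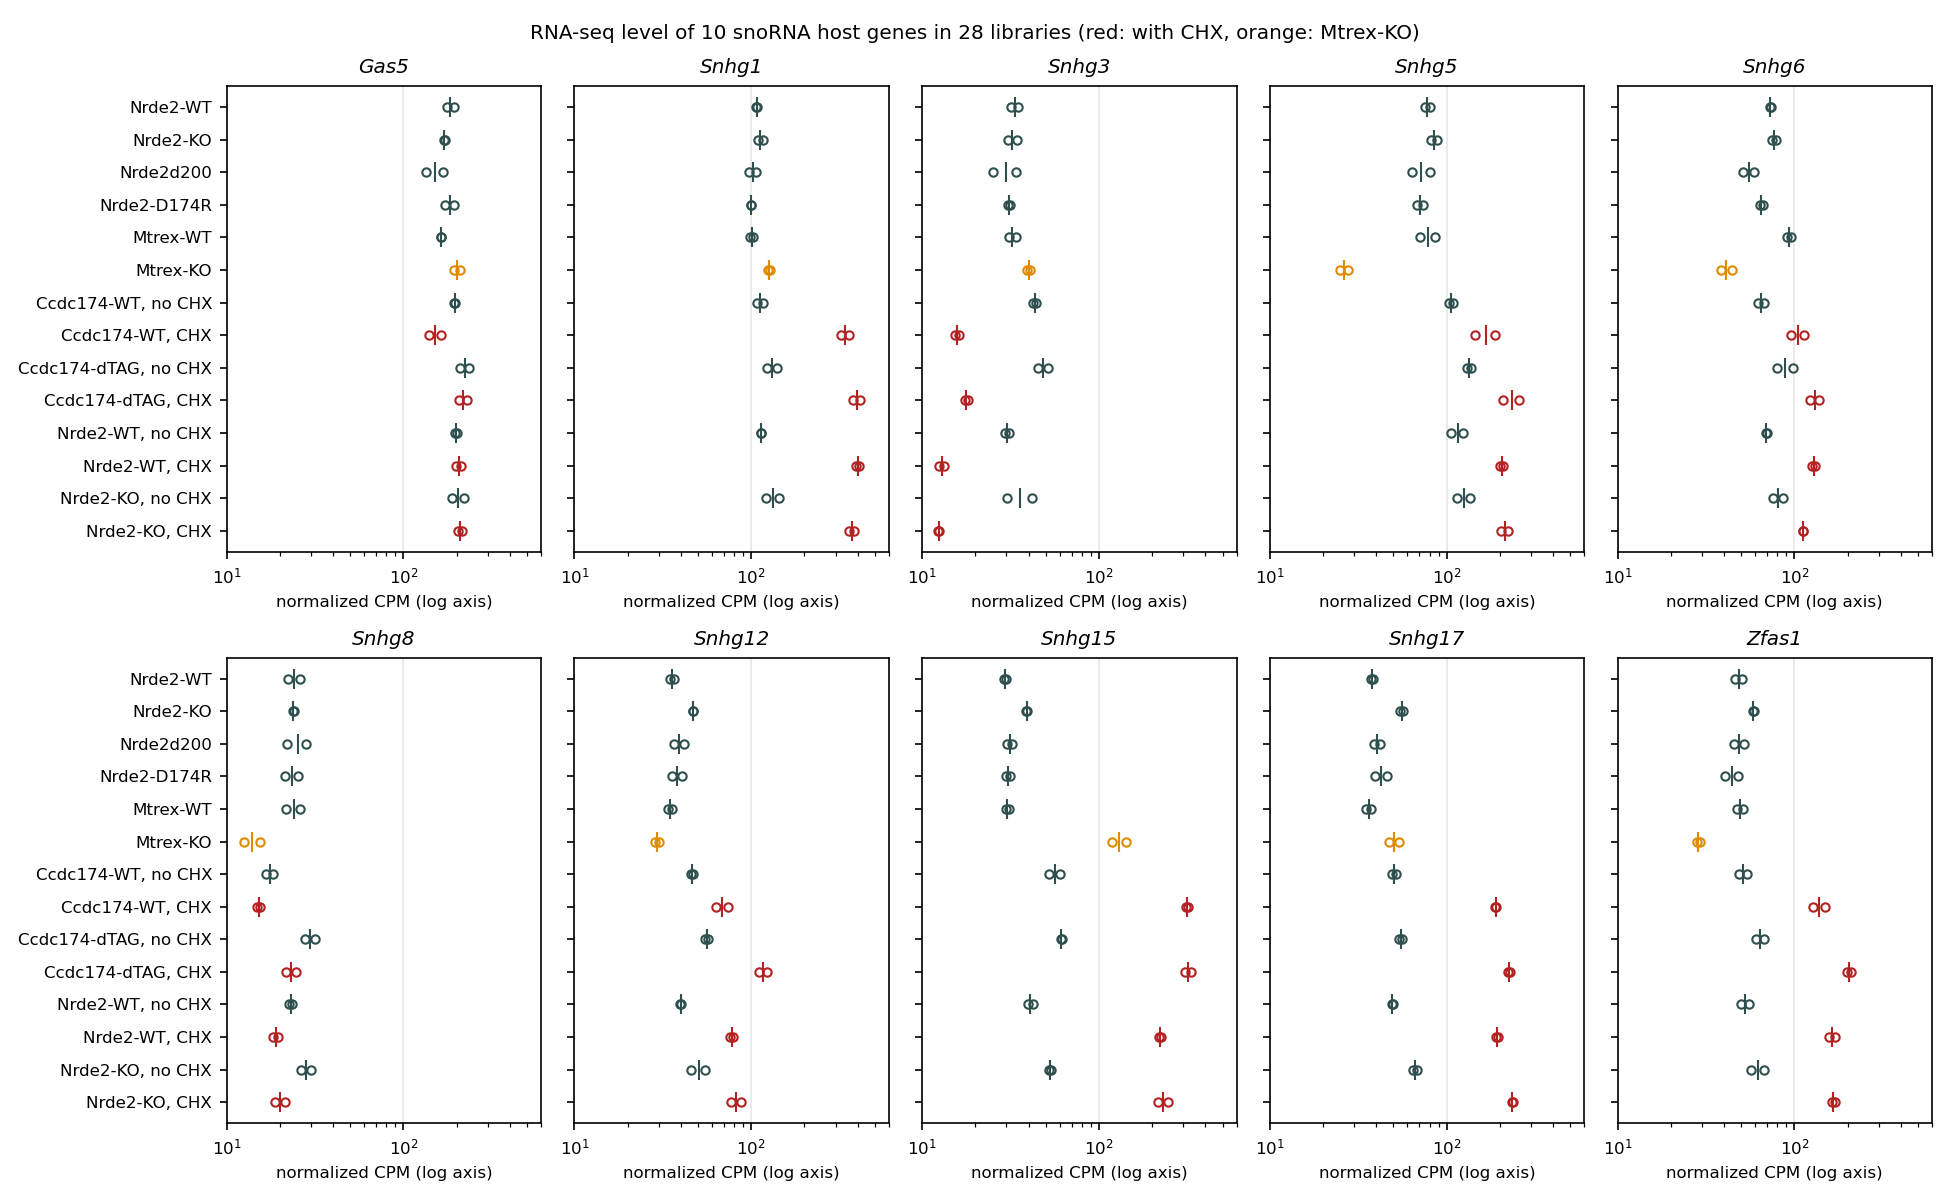
Normalized CPM of each host in the 28 RNA-seq libraries, 1 panel per gene with a log axis, 1 point per library and a line at the mean of each group (red, with CHX; orange, Mtrex-KO; dark grey, the other groups). The CHX libraries of Snhg1, Snhg15, Snhg17, Snhg12, Snhg5 and Zfas1 lie above all 20 libraries without CHX, those of Snhg3 lie below all 20, and those of Gas5 and Snhg8 lie among them. The share of all genes so placed was not counted.

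Most of the hosts moved with CHX. In each of the 4 genotypes Snhg1, Snhg5, Snhg6, Snhg12, Snhg15, Snhg17 and Zfas1 rose and Snhg3 fell (limma, adjusted p below 0.01 over 15133 genes), while Gas5 and Snhg8 passed in 1 and 2 genotypes, both lower. The 7 of 10 hosts that rose compare with 25.1% of all genes in Nrde2-WT, 26.3% in Nrde2-KO, 25.4% in Ccdc174-WT and 26.3% in Ccdc174-dTAG. With a change of more than 1 on the log2 scale as well, 4 hosts were higher in Nrde2-WT, Nrde2-KO and Ccdc174-WT (background 11.2%, 10.9% and 12.6%) and 5 in Ccdc174-dTAG (11.9%), and Snhg3 was lower in all 4 (2.91%, 3.17%, 2.61% and 2.68%). Genes that fell, as Snhg3 did everywhere and Gas5 and Snhg8 did in places, were 22.4%, 22.5%, 24.1% and 24.1% of all genes in the same order of genotypes. The median log2 change over the 10 hosts in Nrde2-WT was 0.92, against 0.0035 over all genes. Dividing by the library factor matters here: in CPM as deposited the median of all genes with CHX rose by 0.20 to 0.24 on the log2 scale, and the changes given are relative to it.

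Cell type markers moved with CHX too. Of the 8 stem cell markers 4 fell and 1 rose in Nrde2-WT, and 6, 6 and 7 fell and 1 rose in Nrde2-KO, Ccdc174-WT and Ccdc174-dTAG. Their summed level in Nrde2-WT was 5386 and 5452 normalized CPM without CHX and 3554 and 3615 with it. In Nrde2-WT 1 of 3 fibroblast markers tested rose (Col3a1, 2.03), 1 of 3 trophectoderm markers rose (Gata3, 1.57) and 1 fell (Eomes, -1.20), and 1 of 4 primitive endoderm markers rose (Sox17, 1.28). The summed levels of these 3 lists were low, at 2.54 to 2.61, 17.9 to 19.4 and 7.52 to 9.13 normalized CPM without CHX and 3.86 to 4.19, 12 to 13.6 and 11.3 to 12.4 with it, and the fibroblast marker Postn was at 0 in Nrde2-WT without CHX. The part of these markers in the changes of the hosts was not tested.

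Snhg15, the host of an H/ACA snoRNA, rose most. In Nrde2-WT it was at 42.4 and 39.6 normalized CPM without CHX and at 223 and 219 with it, a log2 change of 2.43 ± 0.08 (SE, n = 2 libraries per group; adjusted p = 1.3e-11). In Ccdc174-WT it went from 51.9 and 60.5 to 319 and 310. The rise was 4.35- to 5.59-fold over the 4 genotypes, and the lowest CHX library, at 217, lay above the highest of the 20 others, an Mtrex-KO library at 143. Snhg17, an H/ACA host, rose 3.54- to 4.08-fold, in Nrde2-WT from 49.4 and 48.9 to 195 and 190 normalized CPM (log2 change 1.96 ± 0.06, adjusted p = 5.4e-12). Its lowest CHX library was at 188 and its highest library without CHX at 67.9.

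Snhg1, which carries a series of C/D snoRNAs, rose 2.78- to 3.52-fold. It was at 114 and 114 normalized CPM in Nrde2-WT without CHX and at 392 and 408 with it (log2 change 1.81 ± 0.09, adjusted p = 8.5e-10), and at 108 and 117 against 359 and 321 in Ccdc174-WT. No CHX library of Snhg1 was below 321 and none of the 20 others above 144. Zfas1, a C/D host, rose 2.67- to 3.18-fold, from 49.9 and 55.0 to 157 and 169 normalized CPM in Nrde2-WT (log2 change 1.63 ± 0.10, adjusted p = 7.4e-09). Its highest level of all was in Ccdc174-dTAG with CHX, at 210 and 199, against 149 and 127 in Ccdc174-WT with CHX.

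Snhg12, Snhg6 and Snhg5 rose less. Snhg12 went from 39.4 and 40.3 to 78.6 and 76.3 normalized CPM in Nrde2-WT (log2 change 0.95 ± 0.10, adjusted p = 1.2e-06) and rose 1.48- to 2.08-fold over the genotypes. Snhg6 went from 69.2 and 69.7 to 131 and 126 (0.88 ± 0.10, adjusted p = 3.6e-06), and its log2 change was lowest in Nrde2-KO, at 0.46, where it went from 76.0 and 86.0 to 111 and 112. Snhg5 went from 106 and 124 to 200 and 209 (0.83 ± 0.12, adjusted p = 4.5e-05) and rose 1.55- to 1.78-fold. For these genes the groups did not overlap within any genotype, though the share of all genes without overlap was not counted. Across genotypes the gap was small: the lowest CHX library of Snhg6, at 96.0, lay below the highest library without CHX, at 97.6, and for Snhg5 these values were 144 and 137.

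Gas5, the C/D host best known as a target of NMD and a TOP gene, did not rise. It was at 195 and 202 normalized CPM in Nrde2-WT without CHX and at 198 and 212 with it (log2 change 0.05 ± 0.09, adjusted p = 0.66), and its CHX libraries overlapped the others in 3 of 4 genotypes. In Ccdc174-WT it fell from 194 and 195 to 163 and 139 (-0.37 ± 0.09, adjusted p = 2.4e-03), which in CPM as deposited was -0.14 and did not pass (adjusted p = 0.18). Snhg8, an H/ACA host, was at 22.6 and 23.3 without CHX and at 19.6 and 18.2 with it in Nrde2-WT (-0.28 ± 0.11, adjusted p = 0.034). It lay lower with CHX in 4 of 4 genotypes without overlap of the libraries, but the share of all genes without overlap was not counted. The smallest difference was that of Ccdc174-WT (-0.20, and 0.029 in CPM as deposited). Snhg8 passed in Nrde2-KO (-0.48, adjusted p = 1.1e-03) and Ccdc174-dTAG (-0.35, adjusted p = 9.7e-03), but in neither in CPM as deposited (-0.31 and -0.12).

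Snhg3, the host of the U17 class of H/ACA snoRNAs, moved the other way. It was at 29.5 and 31.1 normalized CPM in Nrde2-WT and at 12.5 and 13.2 with CHX (log2 change -1.22 ± 0.12, adjusted p = 7.3e-07). In Ccdc174-WT it went from 44.3 and 42.3 to 16.3 and 15.3, and over the 4 genotypes the fall was 2.33- to 2.83-fold. The highest of the 8 CHX libraries was at 18.2 and the lowest of the 20 others at 25.2.

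**Figure D2:**
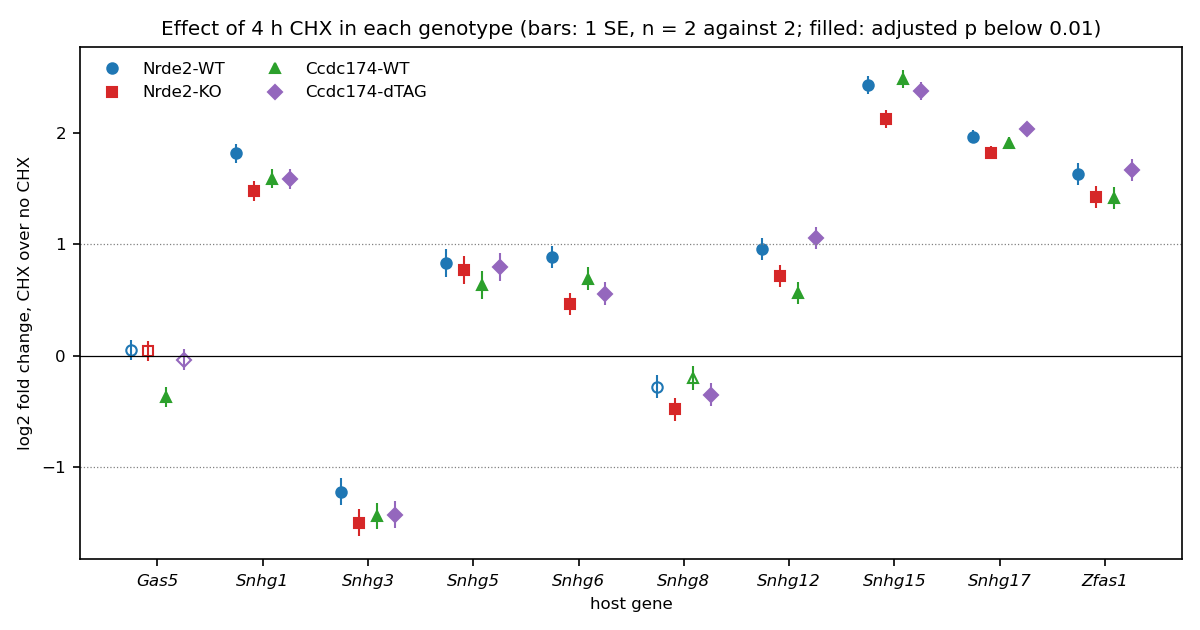
Log2 change with CHX of each host (horizontal axis) in the 4 genotypes, as the fitted value with bars of 1 SE (filled points, adjusted p below 0.01). Snhg15, Snhg17, Snhg1 and Zfas1 lie between 1.41 and 2.48 in every genotype and Snhg3 below -1.2, while Gas5 and Snhg8 lie near or below 0.

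The change with CHX was then compared between genotypes, as an interaction. None of the 10 hosts passed for Nrde2-KO minus Nrde2-WT or for Ccdc174-dTAG minus Ccdc174-WT in limma (background 0.515% and 0.251%), and none by edgeR or DESeq2, while 3 and 2 hosts had an unadjusted p below 0.05. All 10 differences for Nrde2-KO were below 0, from -0.01 for Gas5 to -0.42 for Snhg6 (95% interval -0.73 to -0.11, adjusted p = 0.17), though those of Gas5 and Snhg5 changed sign under some alternatives. The share of all genes below 0 was not counted (median over all genes -0.0025), and the 10 differences come from the same libraries. For Snhg15 the difference was -0.30 (-0.54 to -0.07) and for Snhg1 it was -0.34 (-0.61 to -0.07). For Ccdc174-dTAG the largest difference was that of Snhg12, at 0.49 (0.20 to 0.79, adjusted p = 0.15), followed by Gas5 at 0.33 (0.06 to 0.60), and Snhg3 and Snhg1 were at 0.015 (-0.34 to 0.37) and -0.0048 (-0.27 to 0.26).

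The transcripts were read for the features that background links to NMD and to TOP genes. For each host 1 spliced GENCODE transcript was searched for the first ATG and the stop codon in its frame. It was that of best support and, among equals, of most exons and then greatest length. The background was all other long noncoding transcripts of best support with more than 1 exon, not chosen by number of exons. A splice junction more than 50 bases after the stop codon, the usual requirement of junction-dependent NMD, was present in 8 of 10 hosts, against 71.6% of 7368 background transcripts. The hosts' share was near the background, though the transcripts were not chosen alike. The hosts without such a junction were Snhg3 and Snhg15, which fell most and rose most with CHX, and in each of them other transcripts had one (1 of 2 and 3 of 4 considered). The frames of the hosts that rose most and of the 3 that did not rise are shown with 9 bases on each side and the frame from ATG to stop in capitals.
Snhg15: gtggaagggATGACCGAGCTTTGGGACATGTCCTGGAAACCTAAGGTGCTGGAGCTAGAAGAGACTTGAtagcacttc
Snhg17: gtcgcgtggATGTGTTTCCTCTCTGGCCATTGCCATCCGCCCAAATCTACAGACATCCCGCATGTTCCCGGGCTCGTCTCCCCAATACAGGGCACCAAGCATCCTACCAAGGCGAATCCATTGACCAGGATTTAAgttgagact
Snhg1: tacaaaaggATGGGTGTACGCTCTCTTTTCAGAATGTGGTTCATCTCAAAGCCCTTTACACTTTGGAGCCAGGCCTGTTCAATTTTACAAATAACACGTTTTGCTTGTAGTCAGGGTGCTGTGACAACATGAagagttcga
Gas5: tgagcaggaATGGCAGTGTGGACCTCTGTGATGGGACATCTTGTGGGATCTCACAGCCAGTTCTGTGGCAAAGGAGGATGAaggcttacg
Snhg8: cctacgagtATGTAGttgtatggt
Snhg3: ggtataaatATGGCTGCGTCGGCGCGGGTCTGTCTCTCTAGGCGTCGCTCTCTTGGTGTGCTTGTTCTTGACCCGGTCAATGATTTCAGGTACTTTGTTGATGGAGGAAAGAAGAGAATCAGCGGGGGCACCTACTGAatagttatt
Before the stop codon there were 19 codons in Snhg15, 41 in Snhg17, 40 in Snhg1, 23 in Gas5, 1 in Snhg8 and 42 in Snhg3, and the number of such junctions after it was 0, 4, 5, 7, 2 and 0. Gas5 had the most junctions and did not rise, but gene counts do not separate its transcripts, of which 20 of 25 are annotated as retaining an intron. Whether such junctions bear on the changes with CHX was not tested. The match to an ATG says only that these letters are there, not that a ribosome starts on them.

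Around the RefSeq start site (GRCm38.p6), an unbroken run of at least 6 C or T letters on the coding strand, overlapping the window from 5 bases before to 10 after the start, was found in at least 1 entry of 6 of 9 hosts (66.7%), against 27.6% of 27025 genes counted the same way. By entry it was found in 6 of 11 (54.5%), against 24.4% of 32851, since Gas5 and Snhg17 each had a run in 1 of 2 entries. Snhg6 was not matched to an entry. Gas5, Snhg1, Snhg5, Snhg8, Snhg12 and Snhg17 had a run, and Snhg3, Snhg15 and Zfas1 did not. The runs of Snhg1 and Snhg5 began at positions 5 and 8, downstream of the start site, so these annotated starts do not lie within the run. The windows of Gas5 and Snhg1, whose changes with CHX were unlike, of Snhg12, and of Snhg15 without a run are shown from 20 bases before to 30 after the start, with the run in capitals.
Gas5 (chr1:161035146-161035195, plus): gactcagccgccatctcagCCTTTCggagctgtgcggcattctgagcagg
Snhg1 (chr19:8723467-8723516, plus): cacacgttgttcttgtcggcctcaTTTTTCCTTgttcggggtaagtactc
Snhg12 (chr4:132308658-132308707, plus): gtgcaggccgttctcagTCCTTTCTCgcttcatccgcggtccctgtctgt
Snhg15 (chr11:6528731-6528780, minus): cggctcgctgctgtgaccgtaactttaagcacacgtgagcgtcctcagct
Runs were found in hosts that rose with CHX (Snhg1, Snhg5, Snhg12, Snhg17) and in those that did not (Gas5, Snhg8). The part of these runs in the changes with CHX was not tested.

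In Ribo-seq the hosts had 60 to 246 reads per library, and the SE of their log2 difference between Nrde2-KO and wt was 0.10 to 0.17, against 0.09 to 0.14 in RNA-seq. The level in wt was highest for Gas5 (31.7 and 31.0 normalized CPM) and Zfas1 (29.5 and 29.1), followed by Snhg1 (23.4 and 19.4), Snhg3 (19.0 and 14), Snhg6 (18.7 and 14.5), Snhg8 (16.4 and 15.0) and Snhg5 (13.8 and 14.5). Snhg12 (12 and 11.6), Snhg15 (11 and 12.2) and Snhg17 (10.5 and 7.98) were lowest. In RNA-seq of wt cells Gas5 was at 192 and 176 and Snhg8 at 26.2 and 22.1, so that these 2 hosts lay further apart in RNA than in footprints.

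The ratio of Ribo-seq to RNA-seq in wt was set relative to the median gene, since the assays have no common scale. Duplicate reads were collapsed in Ribo-seq, while the paper names no such step for RNA-seq. The effect of this on the ratios, which scaling to the median gene need not remove, was not tested. Zfas1 (log2 ratio 0.20 ± 0.09, adjusted p = 0.062), Snhg8 (0.31 ± 0.11, adjusted p = 0.030) and Snhg3 (-0.10 ± 0.14, adjusted p = 0.54) did not pass, and the other 7 hosts were lower, against 32.0% of the 14700 genes tested. By more than 1 on the log2 scale Gas5 (-1.62 ± 0.08), Snhg5 (-1.52 ± 0.11), Snhg1 (-1.39 ± 0.10), Snhg6 (-1.21 ± 0.12) and Snhg17 (-1.10 ± 0.13) were lower, which is 5 of 10 against 18.5%. Snhg12 (-0.66 ± 0.10) and Snhg15 (-0.41 ± 0.10) were nearer to the median gene. Between the quartiles of 12867 protein-coding genes (-0.80 and 0.63) lay Snhg8, Zfas1, Snhg3, Snhg15 and Snhg12, at percentiles 65.0, 61.4, 50.4, 39.0 and 29.9, and the other 5 hosts lay below the lower quartile, with Gas5 and Snhg5 at percentiles 7.13 and 8.56. Among 557 long noncoding genes Gas5 was at percentile 23, Snhg1 at 30.0, Snhg15 at 68.0 and Snhg8 at 86.9, so 5 hosts lay above the median long noncoding gene (log2 ratio -0.84) and 5 below it.

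This ratio does not measure translation of a frame: footprints were counted over all exons. Among snoRNA genes inside the hosts, Snora73a (log2 ratio 4.22), Snord87 (3.03) and Gm23201 (2.46) passed as higher in Ribo-seq and Snora73b (-2.63) as lower. The paper describes nuclease digestion of a lysate and a size cut on a gel, and names no step that isolates ribosomes. Whether the fragments counted over the hosts came from ribosomes was not tested. Of 8 nuclear noncoding RNAs tested, 6 were lower in Ribo-seq and 1 higher (background 32.0% and 28.7%, median -0.78), with Kcnq1ot1 at -2.93, Mirg at -2.29 and Tsix at -1.64. On the scale of CPM as deposited the median of all genes was -1.05 in wt, and Snhg8 and Zfas1 turned to -0.70 and -0.81. In Nrde2-KO the same 7 hosts were lower (background 33.7%) and Snhg8 was higher (0.63 ± 0.11, adjusted p = 3.1e-04, background 30.3%), though its ratio turned to -0.27 in CPM as deposited.

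**Figure D3:**
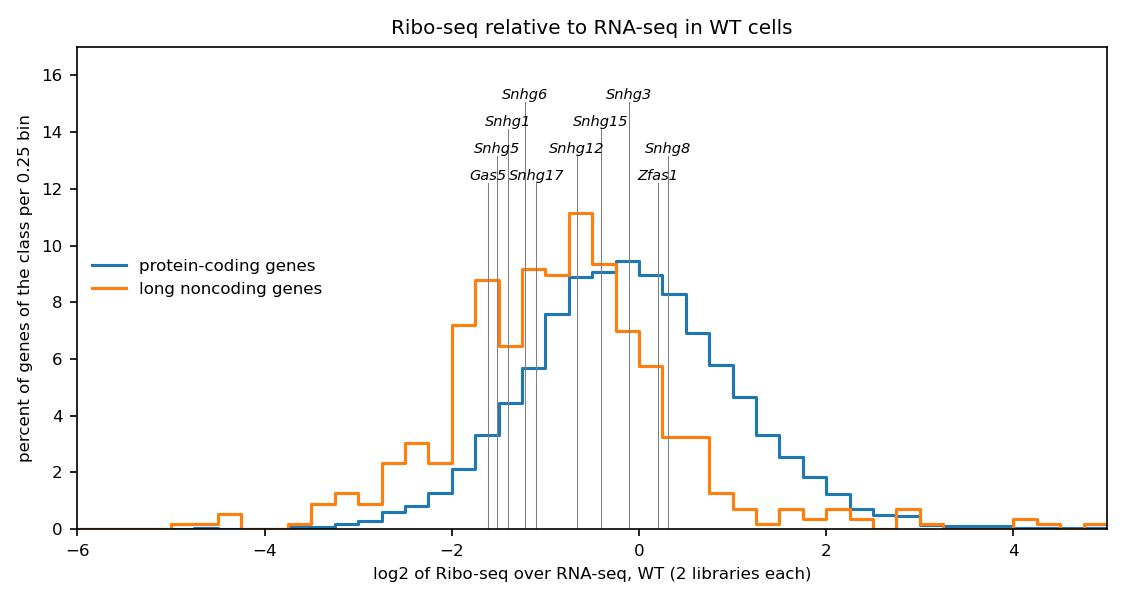
Distribution over genes of the log2 ratio of Ribo-seq to RNA-seq in wt cells (horizontal axis) for protein-coding and long noncoding genes, with the 10 hosts marked by lines. Gas5, Snhg5, Snhg1, Snhg6 and Snhg17 lie below -1, and Snhg12, Snhg15, Snhg3, Zfas1 and Snhg8 lie between -0.66 and 0.31, within the quartiles of protein-coding genes.

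Loss of NRDE2 changed few hosts, and all of those that passed were higher. In the Nrde2-KO libraries Snhg17 (57.0 and 54.5 normalized CPM against 37.2 and 38.2, log2 change 0.56 ± 0.09, adjusted p = 2.3e-04), Snhg15 (38.8 and 39.2 against 29.8 and 29.1, 0.40 ± 0.10, adjusted p = 4.6e-03) and Snhg12 (46.6 and 46.8 against 36.5 and 34.8, 0.39 ± 0.10, adjusted p = 6.7e-03) rose. These 3 of 10 compare with 7.64% of 14889 genes. In the second Nrde2-KO experiment Snhg17 (0.43 ± 0.09, adjusted p = 2.0e-03) and Snhg15 (0.36 ± 0.10, adjusted p = 8.4e-03) rose again (2 of 10, background 7.44%), and Snhg12 was at 0.33 ± 0.10 (adjusted p = 0.018). With CHX only Snhg17 passed (235 and 236 against 195 and 190, 0.29 ± 0.04, adjusted p = 3.8e-04, background 12.5%), and Snhg15 differed by 0.06 ± 0.06. A block for replicate number gave 2 hosts with CHX, and with no filter on low values 1 host passed in each of the experiments without CHX. These counts rest on single libraries: without any 1 of the 4 libraries of the first experiment 1 host passed, and in the second none did without Nrde2-WT replicate 1, Nrde2-WT replicate 2 or Nrde2-KO replicate 2.

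Markers of other cell types were also higher in Nrde2-KO. In the first and second experiments the trophectoderm markers Cdx2 (1.32 and 1.36) and Gata3 (1.37 and 1.25) rose, 2 of 3 tested, and Gata6 (1.78 and 2.18) rose, 1 of 4 primitive endoderm markers. Of the 8 stem cell markers 2 fell in the first experiment (Tdgf1, -0.96, and Tfcp2l1, -0.68) and 1 in the second (Tfcp2l1, -0.53), and 0 of 2 fibroblast markers passed in either. In the first experiment the summed level of trophectoderm markers was 11.2 and 11.8 normalized CPM in Nrde2-WT and 12.5 and 15.8 in Nrde2-KO, that of primitive endoderm markers 11.4 and 11.8 against 17.7 and 19.9, and that of stem cell markers 5131 and 5430 against 4043 and 4306. In Ribo-seq 2 of 3 primitive endoderm, 1 of 3 trophectoderm and 1 of 2 fibroblast markers were higher, and 2 stem cell markers were lower and 1 higher. Their part in the differences of the hosts was not tested.

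In Nrde2d200 no host passed (background 7.49%), with 2 at an unadjusted p below 0.05, none by edgeR and 1 by DESeq2, which was Snhg6 (59.0 and 51.2 normalized CPM against 72.5 and 73.8, log2 change -0.41 ± 0.10, limma adjusted p = 0.012). In Nrde2D174R no host passed in limma (background 0.396%), edgeR or DESeq2, and none had an unadjusted p below 0.05. In Ribo-seq no host passed between Nrde2-KO and wt in limma (background 25.2%), edgeR or DESeq2, with 3 at an unadjusted p below 0.05. The largest difference was that of Snhg15, at 15.0 and 16.3 against 11 and 12.2 normalized CPM (log2 0.42 ± 0.15, adjusted p = 0.030), and Snhg17 was at 12 and 12.4 against 10.5 and 7.98 (0.41 ± 0.17, adjusted p = 0.076). The difference between the Ribo-seq and RNA-seq effects passed for no host in limma (background 4.86%), edgeR or DESeq2, with none at an unadjusted p below 0.05. It was 0.01 for Snhg15 (95% interval -0.31 to 0.34) and 0.33 for Snhg8 (-0.03 to 0.68).

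In Ccdc174-dTAG cells all 10 estimates were above 0 (median log2 change 0.25, against 0.025 over all genes). The share of all genes above 0 was not counted, and the 10 estimates come from the same libraries. Of the hosts 2 passed, Snhg8 (27.7 and 31.5 normalized CPM against 16.7 and 18.3, log2 change 0.75 ± 0.14, adjusted p = 2.1e-03) and Snhg6 (79.8 and 97.6 against 62.2 and 67.3, 0.45 ± 0.10, adjusted p = 9.4e-03), against 1.14% of genes that rose. With CHX 5 hosts rose, against 3.19% of genes: Snhg12 (123 and 110 against 74.3 and 63.0, 0.76 ± 0.09, adjusted p = 2.8e-04), Snhg8 (24.8 and 21.6 against 15.5 and 14.9, 0.60 ± 0.09, adjusted p = 1.7e-03), Zfas1 (0.57 ± 0.07), Gas5 (227 and 206 against 163 and 139, 0.52 ± 0.08) and Snhg17 (0.25 ± 0.04). Snhg15 differed least, by 0.02 ± 0.06. With no filter on low values, where more genes are tested, none passed without CHX or with it (adjusted p = 0.011 to 0.024 for the 5 hosts with CHX), while a block for replicate number gave 8 with CHX. Of the 8 stem cell markers 1 rose and 1 fell both with and without CHX, and of the 4 primitive endoderm markers 1 rose in each. The counts were not stable to the libraries used. Without CHX none passed when Ccdc174-WT replicate 1, Ccdc174-WT replicate 2 or Ccdc174-dTAG replicate 2 was left out, and with CHX 3 passed without Ccdc174-WT replicate 2 and 2 without Ccdc174-dTAG replicate 1. The Ccdc174-WT control libraries are shared by the comparison of genotypes and the effect of CHX in that genotype.

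Loss of MTREX split the hosts. Snhg15 rose from 29.7 and 30.9 to 143 and 118 normalized CPM (log2 change 2.09 ± 0.10, adjusted p = 1.6e-11), and Snhg17 (37.2 and 35.1 to 53.7 and 47.3, 0.48 ± 0.09, adjusted p = 2.3e-04) and Snhg1 (99 and 102 to 128 and 125, 0.33 ± 0.09, adjusted p = 3.4e-03) rose slightly. Snhg5 fell from 70.5 and 86.0 to 27.7 and 25 (-1.55 ± 0.12, adjusted p = 6.4e-09) and Snhg6 from 90.7 and 96.1 to 44.3 and 38.3 (-1.18 ± 0.10, adjusted p = 3.0e-08). Zfas1 (47.2 and 51.0 to 28 and 29.2, -0.77 ± 0.11) and Snhg8 (21.8 and 26.0 to 12.5 and 15.5, -0.76 ± 0.14) also fell. Gas5 was at 0.31 ± 0.10, Snhg3 at 0.31 ± 0.14 and Snhg12 at -0.25 ± 0.10, none of which passed.

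Thus 3 of 10 hosts were higher and 4 lower in Mtrex-KO, against 28.5% and 27.4% of all genes, and 1 and 2 by more than 1 on the log2 scale, against 15.8% and 10.9%. The shares of hosts were near those of all genes. Fewer of the reads of Mtrex-KO replicate 1 fell in genes (72.1%) than in any other RNA-seq library, and in CPM as deposited the median of all genes fell by 0.38. On that scale Snhg1 turned to -0.068, Gas5 to -0.091 and Snhg3 to -0.086, Snhg17 was at 0.08 and Snhg12 passed as lower at -0.65. Markers of other cell types moved in the same libraries. Cdx2 (1.58) and Gata3 (2.28) rose, 2 of 3 trophectoderm markers, as did Gata6 (3.01) and Sox17 (0.89), 2 of 4 primitive endoderm markers, and Pou5f1, Nanog, Klf4 and Tdgf1 fell (-1.03 to -0.37), 4 of 8 stem cell markers, while of 2 fibroblast markers Col1a1 rose (1.09) and Thy1 fell (-1.45). The summed trophectoderm level was 14.8 and 17.2 normalized CPM in Mtrex-WT and 30.0 and 30.3 in Mtrex-KO, the primitive endoderm level 10.4 and 10.7 against 13.8 and 15.1, and the stem cell level 5746 and 5893 against 4302 and 5091. Their part in the changes of the hosts was not tested.

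The rise of Snhg15 and the falls of Snhg5, Snhg6, Snhg8 and Zfas1 kept their direction in CPM as deposited. Snhg5, Snhg6 and Zfas1 thus rose with CHX and fell in Mtrex-KO, while Snhg15 rose under both. Snhg17 and Snhg1 also passed as higher under both, but in CPM as deposited their changes in Mtrex-KO were 0.08 and -0.068. The Mtrex comparison shares no library with those of CHX.

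**Figure D4:**
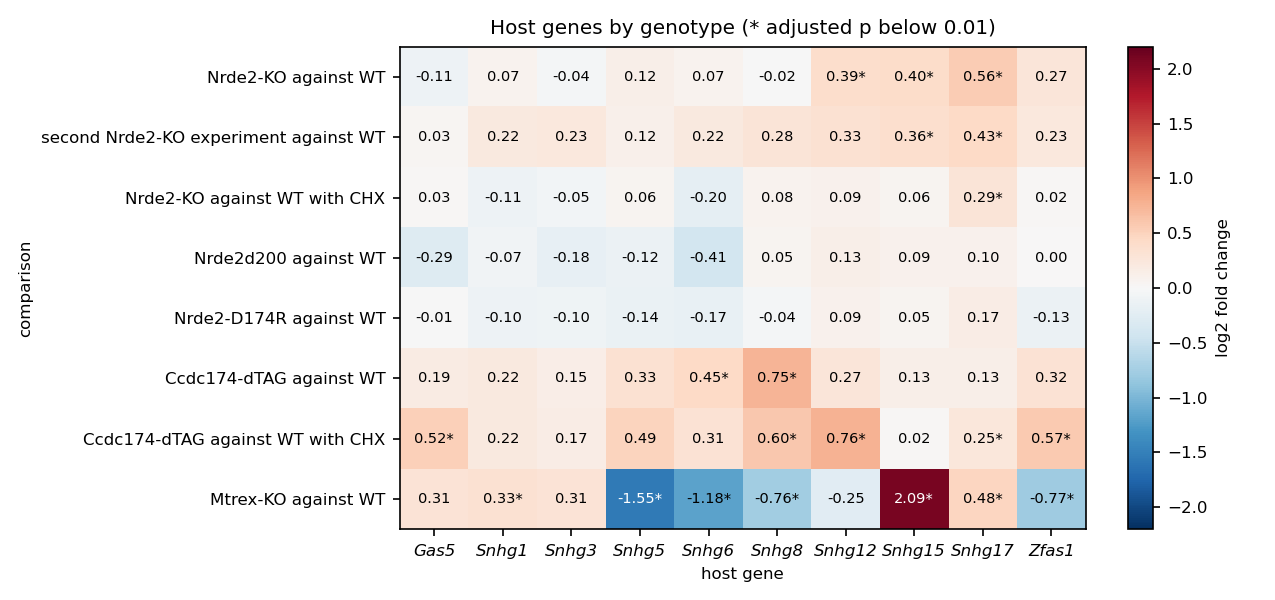
Heat map of the log2 difference in RNA-seq from the matching wt for the 10 hosts (columns) in 8 comparisons of genotype (rows), with an asterisk where the adjusted p was below 0.01. The largest values are those of Mtrex-KO, 2.09 for Snhg15 and -1.55 for Snhg5, and the rows of Nrde2d200 and Nrde2D174R hold no asterisk.

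The snoRNA genes inside the hosts were then read in the same tables. Of 36 within the 10 host genes, 34 overlapped annotated exons of the host and 32 of these were at 0 reads in all 32 libraries. Reads were found for 4 snoRNAs. For its selection of expressed genes the paper states a setting that drops reads overlapping several genes. Under it, reads shared by a snoRNA gene and host exons would count for neither. Whether the deposited counts used it was not tested, so counts of 0 do not show that these snoRNAs were absent. The exons are those of the annotation used here, which is not the release of the authors' counts. Snora73b lies in an intron of Snhg3 (chr4:132352322-132352526) and Snora73a overlaps its exons (chr4:132352775-132352979), Snord87 lies in an intron of Snhg6 (chr1:9942463-9942549), and Gm23201 lies within exons of Zfas1 (chr2:167064998-167065086). Whether reads on these genes came from mature snoRNAs or from unspliced host RNA was not tested.

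With CHX these snoRNA genes were lower even where the host rose. Snord87 was at 3.47 and 2.87 normalized CPM in Nrde2-WT and at 0.766 and 1.23 with CHX (log2 change -1.48 ± 0.26, adjusted p = 2.1e-04), while its host Snhg6 rose by 0.88, and it fell in all 4 genotypes (log2 change -2.11 to -1.45). Gm23201 was at 4.99 and 5.63 and then at 0.790 and 1.23 (-2.16 ± 0.20, adjusted p = 4.9e-07), while Zfas1 rose by 1.63, and it fell in all 4 genotypes (-2.52 to -2.16). Inside Snhg3, which itself fell, Snora73a fell in all 4 genotypes (-1.78 to -1.19) from levels of only 1.05 and 1.11 in Nrde2-WT. Snora73b was at 147 and 117 against 68.9 and 67.3 in Nrde2-WT (-0.94 ± 0.14, adjusted p = 3.5e-05) and passed also in Ccdc174-WT (-0.84), but not in Nrde2-KO (-0.30) or Ccdc174-dTAG (-0.26). The difference between genotypes did not pass for Snora73b (0.64, adjusted p = 0.12, and 0.58, adjusted p = 0.27).

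**Figure D5:**
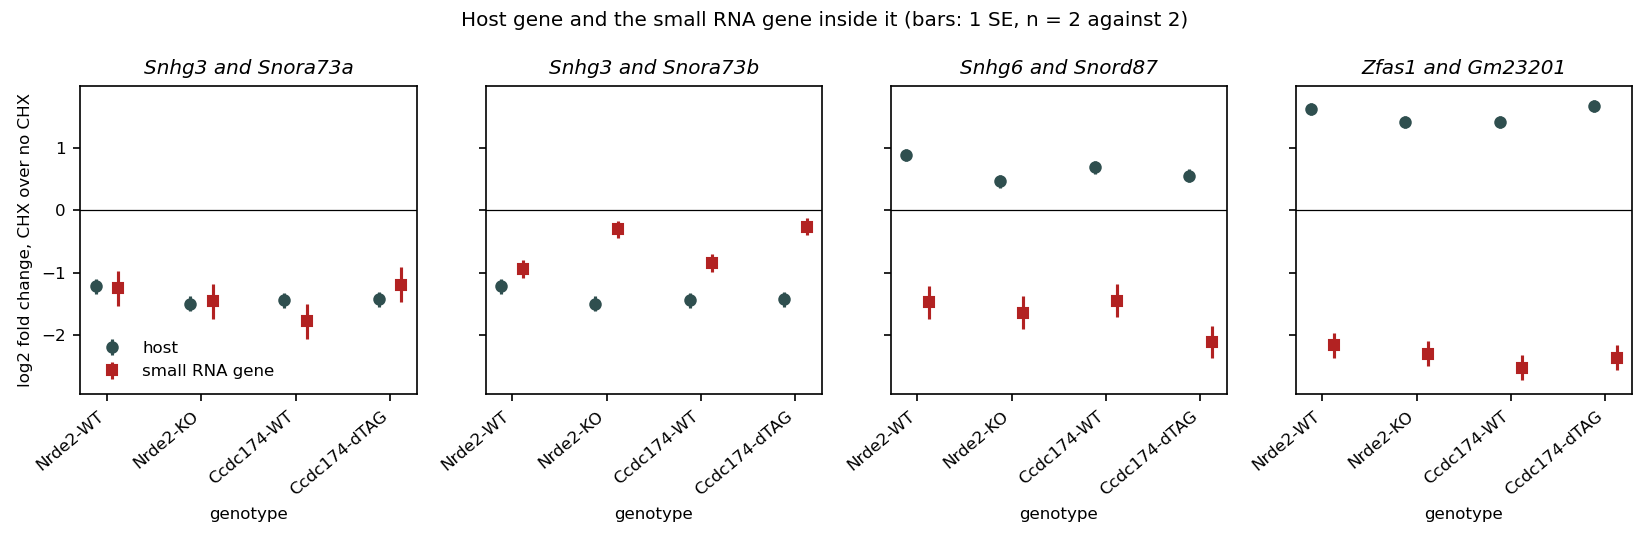
Log2 change with CHX of a host and of the snoRNA gene inside it, for the 4 pairs with reads and the 4 genotypes, as the fitted value with bars of 1 SE. In the Snhg6 and Zfas1 pairs the host lies above 0 and the snoRNA gene below -1.4 in every genotype, and in the Snhg3 pairs both lie below 0.

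Other genes of the pathway, taken from fixed lists, are given beside the share of all genes that rose (25.1%) and fell (22.4%) with CHX in Nrde2-WT. Of 7 other noncoding snoRNA hosts tested, 1 rose and 3 fell (median log2 change -0.22, against 0.0035 for all genes), with Dancr at -2.65, Snhg20 at -1.69 and Epb41l4aos at 1.44. Of 38 protein-coding hosts, 2 rose and 32 fell (median -0.63), among them Rpl10, a ribosomal protein gene, at -2.0, Hspa8, a chaperone gene, at -1.82 and Tpt1 at -1.44. Of 16 genes for snoRNP proteins and their assembly factors, 1 rose and 8 fell (median -0.24), with Snu13, a C/D core protein, at -0.77, the methyltransferase Fbl at -0.71 and the H/ACA protein Nop10 at -0.67. Of 10 NMD factors, 3 rose, a share near that of all genes, and none fell (median 0.12), with Smg9 at 0.52, Upf2 at 0.34 and Smg6 at 0.22. All 8 nuclear noncoding RNAs tested fell (median -1.0), including Tsix at -1.67, Neat1 at -1.65 and Kcnq1ot1 at -1.56.

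In Mtrex-KO, where 28.5% of all genes rose and 27.4% fell, 4 of the 7 other noncoding hosts rose and 1 fell (median 0.74, against -0.0017 for all genes), with Snhg20 at 2.29, Snhg10 at 1.74 and Epb41l4aos at -1.33. Of the 38 protein-coding hosts, 5 rose and 20 fell (median -0.41), with Rcc1 at -1.64, Rpl13a at -1.38 and Rps20 at -1.18, and of the 16 snoRNP genes 11 fell and none rose, with Nop10 at -1.68, Nolc1 at -1.18 and Fbl at -1.01. Of the 10 NMD factors 5 rose and none fell. In Ribo-seq over RNA-seq of wt cells the other noncoding hosts ranged from Snhg18 at -2.63 to Snhg9 at 2.95 and Dancr at 4.95, wider than the 10 hosts described here.

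Over the 14 RNA-seq groups the hosts shared a common profile to unlike degrees. The reference was the median profile of the 10, in which each host is itself included. The Pearson correlation with the median profile of the 10 was 0.98 for Snhg12, 0.97 for Zfas1, 0.96 for Snhg17 and 0.95 for Snhg1, between 0.86 and 0.87 for Snhg5, Snhg6 and Snhg15, and 0.41 for Gas5, -0.10 for Snhg8 and -0.79 for Snhg3. Snhg1 and Snhg17 were the closest pair (r = 0.99) and Snhg1 and Snhg3 were opposed (r = -0.89). Of 15217 genes, the 5 other genes most like the median profile were Rabggtb (r = 0.986), itself a host of C/D snoRNAs, Zfp109 (0.983), Dph7 (0.980), 2410006H16Rik (0.979) and Usp30 (0.978). The groups share control libraries and the profile is led by the 4 CHX groups, so these values describe likeness and are not tests.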

How the data were processed

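RNA-seq of rRNA-depleted total RNA (strand-specific, single-end) and Ribo-seq (footprints made with Benzonase) were analysed. The deposited tables hold CPM per gene, which the authors made by mapping reads to mm10 with STAR (2.7.0a and 2.7.3a are both listed in the submitters' processing notes) and counting uniquely mapped reads over GENCODE M23 exons with featureCounts, then dividing by each library's total. Ribo-seq duplicates were collapsed before mapping. For its selection of expressed genes the paper states a setting under which reads overlapping more than 1 gene are not counted. CPM steps gave whole reads for 100% of values within 0.1 read. Here each library's CPM was rescaled by its median ratio to the other libraries, and log2 of the value plus 0.25 was fitted with limma 3.58.1 (eBayes with trend, R 4.3.3) for genes that averaged 0.5 CPM or more, in 5 fits with 18 comparisons. The fits held the 16 libraries of the CHX experiments, the 20 RNA-seq libraries without CHX, the 8 with CHX, the 4 of Ribo-seq, and 8 of both assays. P-values were adjusted (Benjamini-Hochberg) over all genes tested, and a gene passed at an adjusted p below 0.01. Folds are on the log2(CPM + 0.25) scale and understate those of low genes.

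Symbols, exons and coordinates came from GENCODE M21 of GRCm38 (55154 of 55335 identifiers matched), start sites from RefSeq. edgeR 4.0.16 and DESeq2 1.42.0 on the recovered reads were alternatives. The members and lists were chosen with earlier results of these data known. All 10 members are named in each comparison, and at most 3 genes per list, those with the largest change that passed. Alternatives were other additions before log2 (0.1 and 1), other filters, CPM as deposited, a replicate block, only the compared groups, and leaving out each library. The scripts were tested on simulated data. BCLIP-seq libraries were not used here.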

Additional observations from a re-analysis of the deposited data

Results flagged for a closer look

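Both results below concern snoRNA genes inside 2 hosts, which the comparisons of host genes do not use. In Ribo-seq Snord87, inside an intron of Snhg6, was at 13.6 and 12.6 normalized CPM in wt and at 55.7 and 69.8 in Nrde2-KO, a log2 difference of 2.23 ± 0.12 (SE, n = 2 libraries per group; limma, adjusted p = 5.9e-11). Gm23201, inside Zfas1, was at 17.7 and 9.97 in wt and at 40.8 and 46.4 in Nrde2-KO, a log2 difference of 1.69 ± 0.18 (adjusted p = 3.6e-07). In RNA-seq of the first Nrde2-KO experiment Snord87 was at 2.43 and 2.46 against 2.80 and 2.71 and Gm23201 at 4.17 and 3.51 against 4.19 and 4.47. The Ribo-seq effect was larger than the RNA-seq effect by 2.38 for Snord87 (adjusted p = 4.9e-04) and by 1.85 for Gm23201 (adjusted p = 4.6e-03). The hosts Snhg6 and Zfas1 differed by 0.09 and 0.07 in Ribo-seq, and Snora73a and Snora73b, inside Snhg3, by -0.39 and 0.09, none of which passed. The Nrde2-KO Ribo-seq libraries had fewer reads in genes (3475051 and 4540761, against 5035940 and 4972570). Before scaling, Snord87 had 311 and 539 reads in Nrde2-KO against 105 and 95 in wt, and Gm23201 had 228 and 358 against 136 and 75. The part of depth in these differences was not tested.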

How the results depend on the processing

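Counts of hosts that passed stayed within 1.5 times the main count in 221 of 247 alternatives. With no filter on low values the count was 1 for Nrde2-KO (3 in the main setting), 1 for the second Nrde2-KO experiment (2), 0 for Ccdc174-dTAG (2) and 0 for it with CHX (5). In CPM as deposited, and by edgeR, it was 1 for Ccdc174-dTAG. Fits of the compared groups alone, which hold fewer libraries, gave 1 for Nrde2d200 (0), 4 for Mtrex-KO (7), 1 for Ccdc174-dTAG and 1 for the second Nrde2-KO experiment, and DESeq2 gave 1 for Nrde2d200. The cause of the other shifts was not tested. Leaving out each library gave 1 to 1 for Nrde2-KO, 0 to 2 for the second experiment, 0 to 2 for Ccdc174-dTAG, 2 to 6 for it with CHX, 6 to 7 for Mtrex-KO and 8 to 9 for CHX.

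With the replicate block the count was 1 for Nrde2d200 (0), 2 for Nrde2-KO with CHX (1) and 8 for Ccdc174-dTAG with CHX (5), and it moved no other count by over 1.5 times. Deviations of replicate 1 correlated between groups at 0.18 to 0.38 over the 6 pairs of groups of the Ccdc174 experiment, 0.12 to 0.37 over the 6 of the second Nrde2 experiment, -0.035 to 0.27 in the first, 0.41 for Mtrex and -0.026 in Ribo-seq. No label says that a number marks a shared batch, and with 2 replicates per group a pairing was not settled.

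Of 2470 alternatives for single hosts, 75 lost their call, 21 gained it and 4 reversed, all 4 in CPM as deposited: Snhg1 in Mtrex-KO (-0.068), and the ratio of Ribo-seq to RNA-seq of Snhg8 (-0.70) and Zfas1 (-0.81) in wt and of Snhg8 in Nrde2-KO (-0.27). A further 94 changed sign with no call in either setting. The SE of the hosts' log2 differences in Ribo-seq, 0.10 to 0.17 at 60 to 246 reads per host, sets the size of difference these libraries resolve.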
